A study of Mus musculus with 4 samples.

Results

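The genes described here belong to the ATF4 arm of the integrated stress response. They are 42 listed mouse genes in 5 role groups, namely 4 eIF2 kinases, 13 transcription factors and regulators, 8 enzymes of amino acid and one-carbon synthesis, 5 amino acid transporters and 12 cytosolic tRNA synthetases. Members were rows of the count table whose symbol was on the list and whose 4 counts summed to 15 or more. All 42 met this rule, out of 23420 rows in the table, and all 42 passed the filter on low counts.

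The libraries came from pancreatic β-cells isolated by flow sorting from mice given doxycycline for 10 days to ablate most of their β-cells, so the cells measured are those that remained. The group labelled Bmal1KO (genotype Bmal1KO, with DTA) and the group labelled Bmal1Het (genotype Bmal1+/-, with DTA) had 2 libraries each. DTA commonly stands for diphtheria toxin A, which kills a cell that makes it, and both groups carry it, as both also received doxycycline. No group kept both Bmal1 copies or went without ablation. The promoters that drive DTA and any Cre, the ages and the number of animals per library are unstated in the sources used. Whether libraries with the same label stem from different animals is not stated, and p-values therefore rest on library-to-library spread that could be technical.

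In the integrated stress response, the kinases HRI, PKR, PERK and GCN2 phosphorylate the initiation factor eIF2 when cells meet heme shortage, double-stranded RNA, unfolded protein in the endoplasmic reticulum or a lack of amino acids. General translation then slows while the mRNA of ATF4 is translated more, and ATF4 switches on genes for amino acid supply, tRNA charging and recovery. β-cells fold very large amounts of proinsulin, and loss of PERK is known to harm them. Because ATF4 is controlled mostly at translation, its mRNA level does not report its protein.

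Library totals were 31056116 to 38020488 counts, and the 42 genes took 0.400% to 0.455% of them. Levels below are CPM, read counts set relative to the TMM-scaled library size, given as mean ± SD with n = 2 per group, or for single libraries in the order KO replicate 1, KO replicate 2, heterozygous replicate 1, heterozygous replicate 2. A count of 3, the floor for a library at 0, equals 0.0775 to 0.0937 CPM and covers counting error only. Arntl, the gene of BMAL1, was at 75.8, 65.6, 23.0 and 14.98 CPM, higher in the libraries labelled KO (log2 fold change 1.89, SE 0.24, edgeR adjusted p = 0.0175), which goes against the label if read as loss of mRNA. Counts over the whole gene cannot show a missing exon, so groups keep the names of their labels, and each direction below compares the KO label with the heterozygous label. The 9 β-cell markers summed to 234975 to 273806 CPM under the KO label and 217072 to 276051 CPM under the heterozygous label, and none was at 0. Insulin and amylin genes carry that sum, and gene by gene 7 of the 9 were lower under the KO label (median log2 fold change -0.38). Of the 9, Ucn3 (-2.04) and G6pc2 (-0.96) were called lower (edgeR adjusted p under 0.05), as were 1.34% of all genes tested. Markers of other cells were present as well. Stromal markers (9 genes) summed to 152.6 and 411 CPM against 65.4 and 24.6 CPM. Of the 7 stromal genes tested 4 were called higher, where 1.2% of all genes tested were. Acinar markers (10 genes, Amy2a5 at 0 in all libraries) summed to 170 and 81.8 against 65.3 and 24.5 CPM. Immune markers (8 genes) summed to 351 and 1004 against 370 and 440 CPM, and no acinar or immune gene was called. The sums of 4 α-cell markers overlapped, at 2884 and 4502 against 2667 and 3289 CPM. Of these 4 genes, 3 were higher (1 of them called) and 1 lower. Ppy, the marker of PP cells, was at 1974 and 4008 against 1319 and 1046 CPM. The sum of the duct markers (6 genes) was lower, at 513 and 505 against 684 and 775 CPM. Krt7 made that difference (368 and 397 against 567 and 663 CPM). It was the 1 lower gene of the 4 duct genes tested, and the other 3 were higher (median of the 4, 0.48). The sum of 6 genes of cycling cells was lower too, at 49.7 and 99.5 against 340 and 455 CPM. Of these 6 genes, 5 were called lower, where 1.34% of all genes tested were. In bulk libraries fewer cells of a type and less RNA per cell cannot be told apart.

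None of the 42 genes passed the test between the labels (edgeR quasi-likelihood test, Benjamini-Hochberg adjustment over 14649 genes at 0.05), whereas 2.54% of all genes tested did (1.2% higher, 1.34% lower). At an unadjusted p under 0.05, 1 of the 42 was higher and 4 were lower, where 9.12% of all genes were higher and 7.75% lower, 16.9% in all. With DESeq2 2 of the 42 passed, 1 higher and 1 lower, at a background of 8% of genes. With limma-voom and limma-trend 0 of the 42 passed, where 383 and 496 of the 14649 genes did. Of the 42, 29 had a lower and 13 a higher level, and their median log2 fold change was -0.13 against 0.024 over all genes tested. Values of the KO label and the heterozygous label were fully separated for 19 of the 42 genes (15 lower, 4 higher), or 45.2%, where 49% of all genes tested were separated, 23.8% as lower and 25.3% as higher. The log2 fold change lay within 0.5 of 0 for 35 of 42 genes, or 83.3%, against 67.6% of all genes. A 95% interval within a 2-fold change either way was found for 32 of 42 genes, or 76.2%, against 51.8% of all genes. These members are more abundant than most genes, with a median of 88.5 CPM against 19.6 CPM, and the part of abundance in these shares was not tested.

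**Figure D1:**
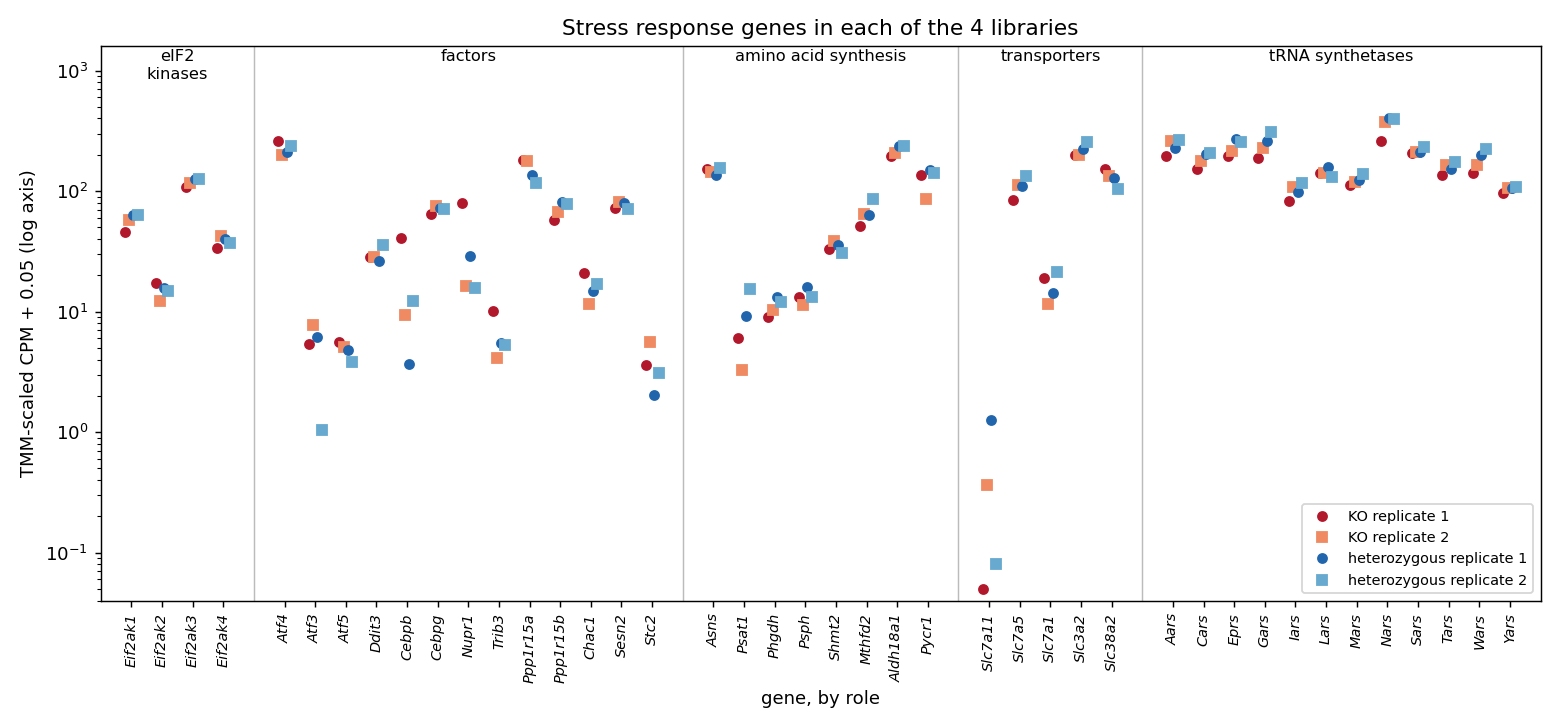
TMM-scaled CPM plus 0.05 on a log axis for each of the 42 genes, ordered by role, with a point for each library (red and orange, KO label; dark and light blue, heterozygous label). Most genes have 4 nearly level points, while Cebpb, Nupr1, Atf3 and Slc7a11 spread widely within a label.

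The promoters of several members hold the C/EBP-ATF response element, the DNA word through which ATF4 and its partners act, and these stretches are shown because they hold that word. RefSeq promoter windows (GRCm38.p6, 250 bases before to 50 after the start) were found for 36 of the 42 genes. The word TGATGNAA, searched on both strands, was present for 12 of 36 genes, or 33.3%, where 4.51% of all 27025 genes with a window hold it. By role it was found for 5 of 8 synthetases, 4 of 12 factors, 2 of 8 synthesis enzymes, 1 of 4 transporters and 0 of 4 kinases. A match describes letters and not a bound site. Examples that lie before the start are given 5′ to 3′ along the gene, with the matched letters in capitals (TTGCATCA and TTTCATCA are the reverse strand of the same word).
Asns, chr6:7693214-7693243, minus strand: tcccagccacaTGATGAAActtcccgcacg
Pycr1, chr11:120643833-120643862, minus strand: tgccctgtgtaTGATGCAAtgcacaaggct
Atf3, chr1:191183425-191183454, minus strand: ccttctcgcacTTGCATCAccaagtccgcg
Chac1, chr2:119351038-119351067, plus strand: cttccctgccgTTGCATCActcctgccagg
Nupr1, chr7:126625562-126625591, minus strand: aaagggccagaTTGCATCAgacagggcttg
Slc7a11, chr3:50443661-50443690, minus strand: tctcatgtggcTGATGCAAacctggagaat
Gars, chr6:55037960-55037989, plus strand: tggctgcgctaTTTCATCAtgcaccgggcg
Tars, chr15:11399659-11399684, minus strand: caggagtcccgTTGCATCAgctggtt
Trib3, Iars and Yars held the word after the start. The 12 genes with the word had a median log2 fold change of -0.095, with 7 lower and 5 higher, and the 24 matched genes without it had a median of -0.10, with 16 lower and 8 higher.

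The E-box CACGTG, which reads the same on both strands and is the word bound by BMAL1 with CLOCK, was present for 5 of the 36 genes, or 13.9%, against 8.09% of all genes with a window. These were Aars, Iars, Tars, Aldh18a1 and Nupr1, and 3 that hold it before the start are shown because they are members whose promoters carry the word of the targeted factor.
Iars, chr13:49682050-49682077, plus strand: accaatcgccaCACGTGttgtttgtagg
Aldh18a1, chr19:40588506-40588533, minus strand: gagggggccgcCACGTGgagcgtgggcg
Nupr1, chr7:126625679-126625706, minus strand: cgagagctttcCACGTGgaaaaacacag
None of the 5 passed the test. Their log2 fold changes were -0.11 (Aars), -0.17 (Iars), -0.13 (Tars), -0.23 (Aldh18a1) and 1.11 (Nupr1).

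The 4 eIF2 kinases had lower levels under the KO label by small amounts, and none passed. Per kilobase of exon, which allows genes to be compared, Eif2ak3 was the most abundant of the 4 in every library (17.8 to 20.9 CPM per kb), followed by Eif2ak1 (8.04 to 11.2), Eif2ak4 (4.52 to 5.70) and Eif2ak2 (2.37 to 3.33). Eif2ak3 encodes PERK, the sensor of unfolded protein, and was at 107, 118, 126 and 125 CPM. Both libraries labelled KO lay below both others, but by little (log2 fold change -0.16, 95% interval -0.49 to 0.17, edgeR adjusted p = 0.634). Eif2ak1 encodes HRI, which senses heme and mitochondrial stress, and was at 45.6, 57.0, 62.7 and 63.6 CPM (-0.30, interval -0.70 to 0.11). KO replicate 1 was the lowest of these, and KO replicate 2 also lay below both heterozygous libraries, which were nearly equal. Eif2ak4, the gene of the amino acid sensor GCN2, was at 33.7, 42.5, 40.3 and 37.3 CPM, with overlapping groups. Eif2ak2, the gene of the RNA sensor PKR, was at 17.1, 12.1, 15.7 and 14.8 CPM, and here KO replicate 1 was the highest and KO replicate 2 the lowest.

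Downstream of the kinases, Atf4 mRNA was level across the libraries. Atf4 (chromosome 15, 80255184 to 80257541, GRCm38) was at 259, 200.4, 212 and 235 CPM, so the libraries labelled KO held both the highest and the lowest value. Its log2 fold change was 0.041 (SE 0.17, interval -0.35 to 0.44, edgeR adjusted p = 0.941). Per kilobase of exon it was the most abundant of the 42 genes in KO replicate 1 and in heterozygous replicate 2, and was second to Nars in the other libraries, within a range of 84.99 to 110 CPM per kb. Ddit3, which encodes the pro-apoptotic factor CHOP, was at 28.3, 28.2, 26.2 and 35.4 CPM. It overlapped between the groups, with a log2 fold change of -0.13 (interval -0.63 to 0.37). Cebpg, whose protein pairs with ATF4, was at 64.7, 75.1, 72.1 and 70.8 CPM, and Atf5, another bZIP factor gene, at 5.57, 5.06, 4.75 and 3.75 CPM. For Atf5 both libraries labelled KO were the higher pair, by less than the test could separate (0.32, interval -0.61 to 1.25).

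The phosphatase subunits that reverse eIF2 phosphorylation leaned in opposite directions, and neither passed. Ppp1r15a encodes GADD34, the stress-induced subunit that restores translation, and was at 182, 177, 136 and 116 CPM, or 179 ± 3.66 against 126 ± 13.8 CPM. Both libraries labelled KO were higher, 1.42-fold (95% interval 1.12 to 1.81; log2 difference 0.51, SE 0.15, edgeR adjusted p = 0.143). With DESeq2 the same gene had a log2 fold change of 0.50 and an adjusted p of 0.0356. Ppp1r15a is also induced when tissue is dissociated. Of 9 dissociation stress genes, among them Fos and Egr1, 5 were called higher, where 1.2% of all genes tested were. These 9 genes summed to 1480 and 862 CPM under the KO label against 428 and 418 CPM. Their part in the Ppp1r15a difference was not tested. Ppp1r15b encodes CReP, the constitutive subunit, and was at 57.0, 66.8, 81.6 and 77.9 CPM. Both libraries labelled KO were lower (log2 fold change -0.37, interval -0.74 to 0.0033, edgeR adjusted p = 0.300).

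Several stress-inducible factors differed more between libraries of a label than between the labels. Cebpb, a bZIP factor gene of stress and inflammation, was at 40.6, 9.24, 3.59 and 12.3 CPM. KO replicate 1 was 4.39 times KO replicate 2, and heterozygous replicate 1 was 0.293 times heterozygous replicate 2. Its log2 fold change of 1.66 had an interval of -0.13 to 3.45 and moved to 0.20 when KO replicate 1 was left out and to 2.79 when heterozygous replicate 2 was, not past the threshold in either. Of its exon length 20.7% overlaps Tmem189 on the opposite strand, which counting without strand cannot separate. Nupr1, the gene of a small stress-induced chromatin protein, was at 79.1, 16.4, 28.7 and 15.5 CPM, high in KO replicate 1 alone. Its log2 fold change was 1.11 (interval -0.42 to 2.64), 1.84 with an edgeR adjusted p of 0.0289 without KO replicate 2, and -0.46 without KO replicate 1. Trib3, whose protein restrains ATF4 and AKT, was at 10.1, 4.09, 5.40 and 5.24 CPM and was also high in KO replicate 1 alone. Chac1, an enzyme that degrades glutathione, was at 20.9, 11.5, 14.7 and 16.8 CPM, with KO replicate 1 highest and KO replicate 2 lowest. Of the 10 acinar markers, the sum was highest in the same library, KO replicate 1, and the endothelial (36.0 CPM) and dissociation stress sums were highest there too. Their part in these levels was not tested.

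Atf3, a stress-induced repressor gene, showed its outlying library under the other label. It was at 5.30, 7.65, 6.12 and 0.999 CPM, low in heterozygous replicate 2 alone (33 counts). Its log2 fold change was 0.86 (interval -0.93 to 2.64), and it ranged from 0.067 without heterozygous replicate 2 to 2.69 without heterozygous replicate 1. Sesn2, which restrains mTORC1, was level at 72.8, 80.9, 79.1 and 70.7 CPM. Stc2, a secreted glycoprotein gene, was low in every library, at 3.53, 5.53, 1.96 and 3.03 CPM. Its higher pair was the KO label (0.86, interval -0.33 to 2.05).

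**Figure D2:**
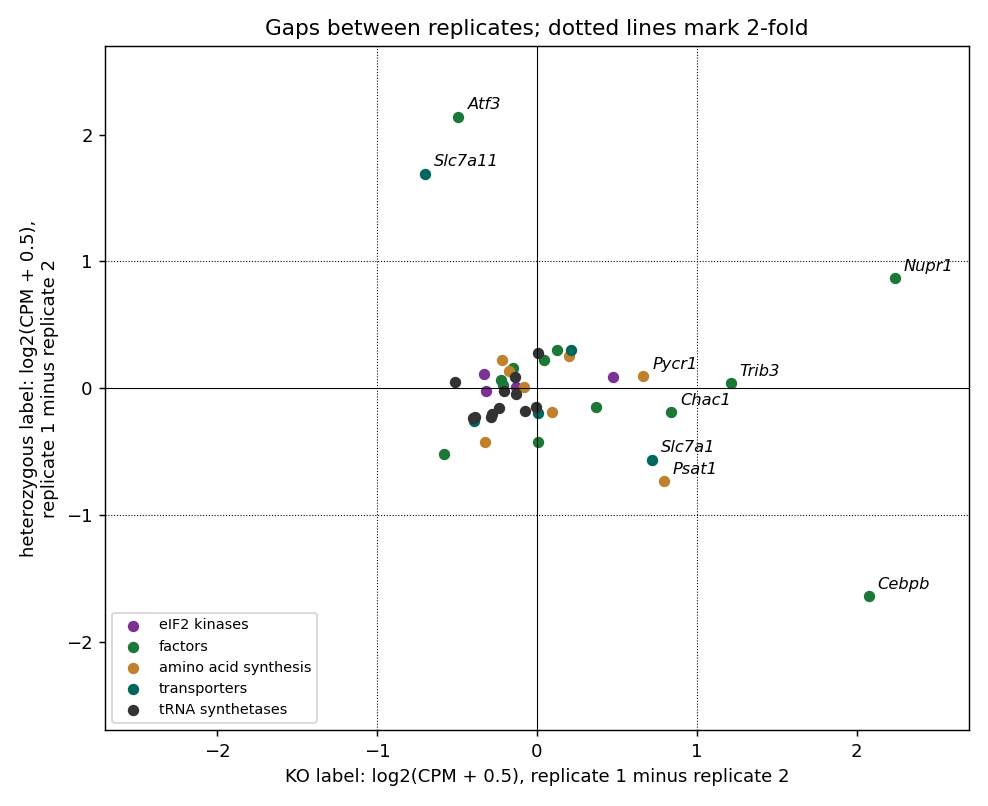
Gap between the replicates of a label for the 42 genes, as replicate 1 minus replicate 2 of log2(CPM + 0.5), under the KO label (horizontal axis) and the heterozygous label (vertical axis), coloured by role. Nupr1, Cebpb and Trib3 exceed 2-fold under the KO label and Atf3, Cebpb and Slc7a11 under the heterozygous label, while the synthetases lie near the origin.

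Gaps of over 2-fold between replicates were seen for 3 of the 42 genes under each label, or 7.14%, against 10.6% of all genes tested under the KO label and 4.40% under the heterozygous label. Of the 13 factors, 10 had higher and 3 lower levels under the KO label, with a median log2 fold change of 0.32. This was the 1 positive median among the 5 role groups, and it leaned on KO replicate 1. Relative to the gene mean, the factors' medians were 0.21 and -0.058 in KO replicates 1 and 2, and -0.085 and -0.099 in the heterozygous ones. Without KO replicate 1, Atf4 (-0.18), Nupr1 (-0.46), Trib3 (-0.40) and Chac1 (-0.49) turned negative, and Cebpg (0.045) turned positive.

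Enzymes of amino acid synthesis leaned lower under the KO label (6 of 8 lower, 2 higher, median log2 fold change -0.31), and Psat1 leaned farthest. Psat1 (chromosome 19, 15904678 to 15947337, GRCm38) encodes the transaminase of serine synthesis, between PHGDH and PSPH. It was at 5.94, 3.22, 9.12 and 15.5 CPM, from 195, 103, 353 and 511 counts. Both libraries labelled KO lay below both others, at 0.373 times their level (95% interval 0.183 to 0.759; log2 fold change -1.42, SE 0.44, edgeR adjusted p = 0.163). With DESeq2 it had a log2 fold change of -1.43 and an adjusted p of 0.0401, and over the settings tried its value ran from -1.96 to -1.003. The other serine enzymes shared the order of the groups without passing. Phgdh, the entry enzyme, was at 8.98, 10.2, 13.2 and 11.99 CPM (-0.39, interval -1.04 to 0.25). Psph, the last enzyme, was at 13.1, 11.3, 15.9 and 13.3 CPM (-0.25, interval -0.87 to 0.36), so that its groups all but touched.

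One-carbon and proline enzymes differed in direction. Shmt2, which passes a carbon of serine to folate in mitochondria, was at 33.2, 38.7, 35.6 and 30.4 CPM, with overlapping groups (0.13). Mthfd2, the next mitochondrial folate enzyme, was at 50.9, 63.9, 63.3 and 85.2 CPM (-0.37, interval -0.85 to 0.11), high in heterozygous replicate 2 and low in KO replicate 1. Aldh18a1, the first enzyme of proline synthesis, was at 196, 207, 236 and 235 CPM (-0.23, interval -0.54 to 0.086), with the KO label the lower pair. Pycr1, the last enzyme of that path, was at 136, 85.4, 150 and 140 CPM (-0.39, interval -0.915 to 0.14), with KO replicate 2 far below the rest. Its value was -0.79 without KO replicate 1 (edgeR adjusted p = 0.050003, just above the threshold) and -0.095 without KO replicate 2 (0.776). Asns, which makes asparagine and is a standard readout of ATF4, was at 152, 143, 136 and 155 CPM. Its groups overlapped, and the interval of its log2 fold change (0.022) ran from -0.32 to 0.36.

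Among the transporters, 4 of 5 had lower levels under the KO label, and none passed. Slc3a2 encodes the heavy chain shared by several amino acid exchangers and was at 198, 198, 222 and 255 CPM. The libraries labelled KO were almost equal and below the other pair (log2 fold change -0.27, interval -0.60 to 0.062, edgeR adjusted p = 0.397). Slc7a5 encodes LAT1, the leucine carrier that pairs with it, and was at 84.5, 111, 110 and 132 CPM (-0.31, interval -0.75 to 0.13), with overlap of KO replicate 2 and heterozygous replicate 1. Slc7a1, the carrier of arginine and lysine, was at 19.1, 11.4, 14.3 and 21.3 CPM. Slc38a2 encodes SNAT2, a neutral amino acid carrier induced by starvation for amino acids, and was the exception in direction. It was at 153, 132, 129 and 105 CPM (0.29, interval -0.10 to 0.68), higher under the KO label by less than the test could separate.

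Slc7a11 was barely detected. It encodes xCT, the cystine carrier that feeds glutathione synthesis, and had 0, 10, 47 and 1 counts, or 0, 0.312, 1.21 and 0.030 CPM. Heterozygous replicate 1 held most of its reads and heterozygous replicate 2 a single read, so the interval of its log2 fold change ran from -6.36 to 2.40.

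All 12 tRNA synthetases had lower levels under the KO label in this fit, by little, and none passed. Their median log2 fold change was -0.17, where the median of all genes tested was 0.024 and 47.6% of all genes were lower. The lowest and highest 95% bounds over the 12 genes were -0.84 and 0.33, so a 2-fold change lay outside all 12 intervals. Summed over the 12 genes, the libraries held 1911, 2264, 2415 and 2553 CPM, and KO replicate 1 stood lowest. For 11 of the 12 genes KO replicate 1 was the lowest of the 4 libraries, and for 9 of the 12 heterozygous replicate 2 was the highest. Over all genes tested, KO replicate 1 was the lowest library for 4348 of 14649, and heterozygous replicate 2 was the highest for 3452. The cycling genes and the β-cell markers had the same order of libraries, with medians relative to the gene mean of -1.64, -0.68, 1.08 and 1.42 for the 6 cycling genes and -0.19, -0.15, 0.18 and 0.35 for the 9 β-cell markers, and their part in the synthetase levels was not tested. The libraries did not overlap for 6 of the 12 genes, all lower, where 23.8% of all genes were lower without overlap.

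Wars, Gars and Eprs had the smallest p-values of the group. Wars, which charges tRNA with tryptophan (chromosome 12, 108860030 to 108894174), was at 141, 166, 200.4 and 224 CPM, or 153 ± 17.6 against 212 ± 16.4 CPM. The libraries labelled KO were at 0.724 times the level of the others (interval 0.565 to 0.928; log2 fold change -0.47, SE 0.15, edgeR adjusted p = 0.183). Gars, the glycine enzyme (chromosome 6, 55038007 to 55079500), was at 187, 228, 262 and 307 CPM, with a ratio of 0.728 (interval 0.558 to 0.9499, edgeR adjusted p = 0.216). Eprs joins the glutamate and proline enzymes in a single protein (chromosome 1, 185363044 to 185428360), and was at 195, 215, 271 and 255 CPM, with a ratio of 0.780 (interval 0.622 to 0.977, edgeR adjusted p = 0.252). In each of these genes both libraries labelled KO lay below both others.

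Cars, Nars and Mars, for cysteine, asparagine and methionine, also did not overlap between the labels. Cars was at 153, 177, 204 and 206 CPM (log2 fold change -0.31, interval -0.65 to 0.023). Nars was at 262, 374, 407 and 394 CPM (-0.34, interval -0.78 to 0.11), where KO replicate 1 made most of the difference. Mars was at 113, 119, 123 and 139 CPM (-0.18, interval -0.52 to 0.16). The 3′ ends of Mars and Ddit3 overlap by 68 bases on opposite strands, 1.99% of the exon length of Mars.

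The other 6 synthetases overlapped between the labels. Aars (alanine) was at 197, 260, 226 and 266 CPM, and shares 14.3% of its exon length with Exosc6 on the same strand. Iars (isoleucine) was at 82.4, 108, 98.5 and 115 CPM and Tars (threonine) at 135, 164, 151 and 174 CPM. In these 3 genes KO replicate 1 was low and KO replicate 2 was between the heterozygous libraries. Sars (serine) was at 208, 209, 209 and 232 CPM, Yars (tyrosine) at 96.7, 106, 105 and 109 CPM and Lars (leucine) at 141, 140, 158 and 130 CPM. Their log2 fold changes were -0.079, -0.082 and -0.035. Per kilobase of exon, Gars (59.9 to 98.5 CPM per kb) and Nars (60.1 to 93.4) were the most abundant synthetases in each library, and Eprs (10.8 to 14.96) the least.

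**Figure D3:**
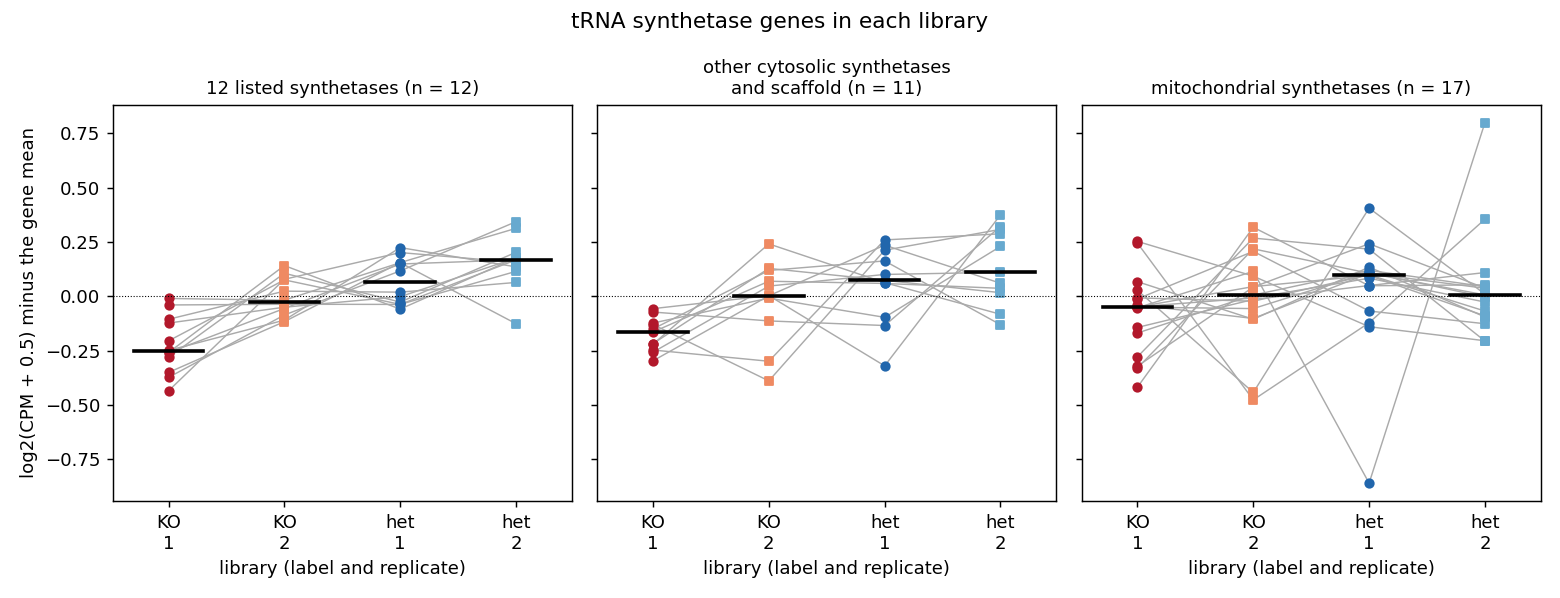
log2(CPM + 0.5) minus each gene's mean over the 4 libraries, for the 12 listed synthetases, 11 other cytosolic synthetase and scaffold genes and 17 mitochondrial synthetases; grey lines join the values of a gene and black bars are medians. The median of the 12 listed genes is -0.25 in KO replicate 1 and -0.027, 0.068 and 0.17 in the others, and the other cytosolic genes show the same order from -0.16 to 0.11.

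The lean of the 12 synthetases was set beside other genes of the same function. Of 11 other cytosolic synthetase and scaffold genes, 10 had lower levels and 1 a higher level, 0 passed, and the median log2 fold change was -0.14. Hars (histidine) was at 60.8, 58.6, 86.6 and 88.3 CPM (-0.55, SE 0.14, edgeR adjusted p = 0.110), Kars (lysine) at 94.4, 78.8, 120 and 128 CPM (-0.52, adjusted p = 0.156) and Vars (valine) at 148, 182, 214 and 190 CPM (-0.29, adjusted p = 0.428). Hars and Kars thus had more negative values than any of the 12 listed genes, and for both genes both libraries labelled KO were low. Of 17 mitochondrial synthetases, 15 were lower and 2 higher, with a median of -0.088 and 0 past the threshold. Vars2 (0.35) and Ears2 (-0.28) were among those with the smallest p-values. Of 8 subunit genes of eIF2 and its exchange factor eIF2B, 0 passed and the median was -0.10, with Eif2s2 (-0.27), Eif2s1 (-0.19) and Eif2s3x (-0.62) nearest. At an unadjusted p under 0.05 (edgeR), 3 of the 12 listed synthetases were lower. So were 2 of the 11, 0 of the 17 and 0 of the 8 genes. No gene of these lists was higher, against 7.75% of all genes lower and 9.12% higher. Past the adjusted threshold the share of all genes was 2.54%. Whether the lists differ from each other was not tested.

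Of 33 other genes of the ATF4 pathway, 31 could be tested, and 1 passed, where 2.54% of all genes tested did. Cbs, which joins homocysteine and serine in the path to cysteine, was at 57.8, 60.1, 99.6 and 98.8 CPM, or 58.9 ± 1.64 against 99.2 ± 0.600 CPM. Both libraries labelled KO were low and the gaps within each label were small. It fell by 0.75 on the log2 scale (SE 0.14, 0.594 times, edgeR adjusted p = 0.0467), and the call was lost with library sizes as the only scaling (adjusted p = 0.0671) and without KO replicate 1 (0.0642), heterozygous replicate 1 (0.223) or heterozygous replicate 2 (0.265). In the list as a whole 21 genes had higher and 10 lower levels, with a median of 0.24. Of all genes tested 47.6% were lower, with a median of 0.024. At an unadjusted p under 0.05 (edgeR), 3 of the 31 were higher and 4 lower, against 9.12% and 7.75% of all genes. The libraries did not overlap for 19 of the 31 (12 higher, 7 lower), or 61.3%, against 49% of all genes.

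**Figure D4:**
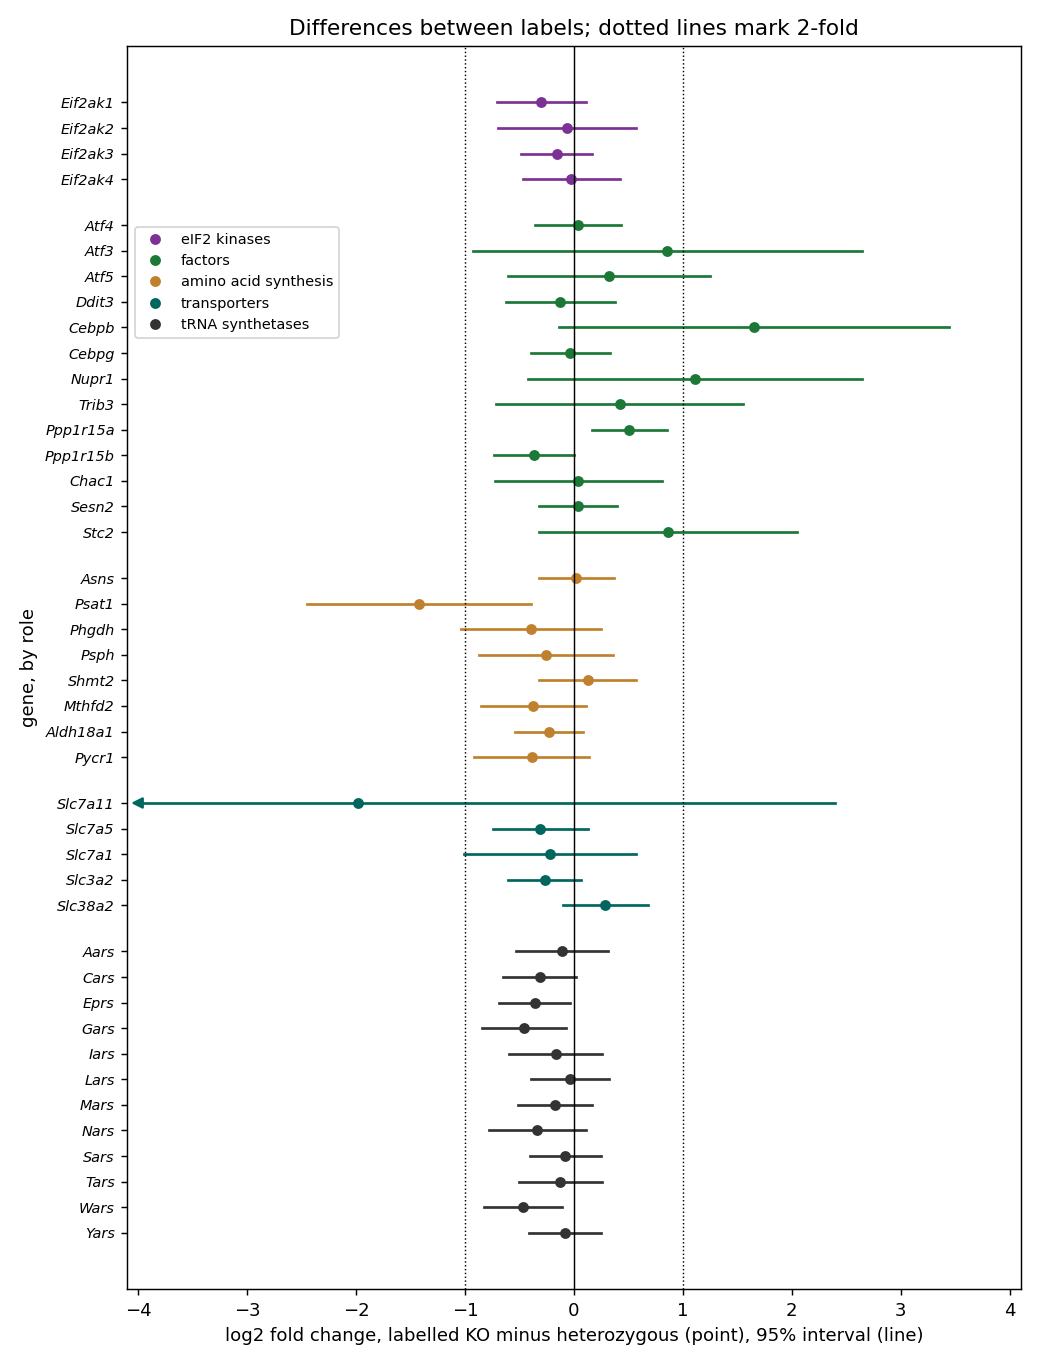
log2 fold change of the libraries labelled KO over those labelled heterozygous for the 42 genes (points), with 95% intervals from edgeR's quasi-likelihood fit (lines); the arrow marks an interval that runs past the axis, and dotted lines mark 2-fold. The 12 synthetases and 4 kinases lie within the dotted lines with their whole intervals, while Cebpb, Nupr1, Atf3, Stc2 and Slc7a11 have wide intervals that cross 0.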

How the data were processed

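The authors' deposited files are a raw count table (whole reads by gene symbol), which was tested, and a normalized table treated as a signal, whose values are those counts times 1 constant per library. Whole reads at a tolerance of 0.01 were recovered from 100% of its values, and the count test on them called the same number of genes, 372. The constants were taken from the raw counts, so this outcome was fixed in advance. That fit is 1 of the 15 settings below. STAR, edgeR and mm10 are listed in the submitters' processing notes without their roles. How reads were counted, with which strand setting and gene models, is not stated in them or in the labels. Per the labels' protocols, RNA was extracted with RNeasy Plus Micro and amplified with SMART-Seq v4, which does not mark strand.

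Genes were kept by edgeR's filterByExpr (at least 10 counts, total of 15), TMM scaling was applied, and edgeR 4.0.16 (R 4.3.3) fitted all 4 libraries with a group term alone, 2-sided, adjusted by Benjamini-Hochberg at 0.05. SE is the size of the log2 fold change over the square root of F; 95% intervals use the fit's total degrees of freedom (2 residual, 5.12 prior). DESeq2 1.42.0 and limma 3.58.1 were alternatives. The text names all 42 members, Arntl and, of each further synthetase or pathway list, genes past the threshold or else the 3 smallest p-values; marker lists are given by sums and counts. Members, lists and rules were chosen with earlier results of these data known. Coordinates and exon lengths are from GENCODE M21 (GRCm38), promoters from RefSeq (GRCm38.p6). Mars was matched as Mars1. Exons of 9 members overlap another protein-coding gene, and Ddit3 has a second, nested entry. Libraries differed by more than sampling noise within each label (chi-square per degree of freedom 63.9 and 42.9). The labels name no batch. A few items are not reported here, 1 of them given by the naming rule.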

Additional observations from a re-analysis of the deposited data

How the results depend on the processing

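With 2 libraries per label the number of genes called depends strongly on the setting, and the cause of these shifts was not tested. Over all genes 372 passed; 808 did with no filter, 1186 with DESeq2 and 591 with a replicate block, and leaving out 1 library gave 25 (without heterozygous replicate 2) to 826 (without KO replicate 2), with 223 and 563 without heterozygous replicate 1 and KO replicate 1. Where an arm was left with 1 library, that library was assumed to vary like the other arm. Of the 42 members 0 passed, except for 2 with DESeq2 (Ppp1r15a and Psat1) and 0 to 1 on leaving out a library (Nupr1 without KO replicate 2). Same-numbered libraries are tied by their number alone (correlation of their deviations -0.017 over 14649 genes), and with the replicate block 0 of 42 members passed. The members' median of -0.13 was -0.075 with library sizes only, -0.089 over the 39 members at a mean of 5 CPM or more, and -0.16 to -0.082 on leaving out a library. The synthetases' median of -0.17 was -0.35 to -0.12 on leaving out a library, largest in size without KO replicate 2, and 11 or 12 of 12 were lower in each of the 15 settings. The Arntl log2 fold change was 1.61 (edgeR adjusted p = 0.0724) without heterozygous replicate 2, the lowest of these, and at most 2.23 on leaving out another library.

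Signs changed in 29 of 626 values of single members, none of them past the threshold in either form. The 626 include 42 from the reads recovered from the normalized table, which could not change. With library sizes only, Eif2ak4 (0.022), Cebpg (0.014) and Lars (0.0058) turned positive, as they did at a mean of 5 CPM or more (0.014, 0.0054 and 0.0025). Chac1 turned negative with limma-voom (-0.012), limma-trend (-0.018) and the replicate block (-0.019). For members that changed sign on leaving out a library, the full ranges over these fits follow, including values that kept their sign. They were -0.20 to 0.11 for Eif2ak4, -0.18 to 0.21 for Atf4, -0.15 to 0.045 for Cebpg and -0.46 to 1.84 for Nupr1. Trib3 ran from -0.40 to 0.93, Chac1 from -0.49 to 0.41, Asns from -0.075 to 0.11 and Aars from -0.33 to 0.052. Eif2ak2 ran from -0.36 to 0.16, Sesn2 from -0.054 to 0.11 and Slc7a1 from -0.67 to 0.10. Lars ran from -0.18 to 0.11 and Ddit3 from -0.33 to 0.095. Depth limits Slc7a11 most among the members, with 0 to 47 counts per library.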
